A study of Danio rerio with 12 samples.

Results

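Untreated zebrafish embryos at 4.5 hours post fertilization (hpf) were described here from the 6 control arrays of a series of 12. They were chosen by their label as control and are numbered 1 to 6 in it. That number was taken as the number of the experiment, shared by a control and an ethanol array, which the labels do not state. Each array was a one-colour Affymetrix Zebrafish Genome Array hybridised with RNA from a pool of 20 wild-type embryos of the ABTL strain, raised in embryo medium, and the numbered experiments were independent. The other 6 arrays held pools from the same experiments that were kept in 100 mM ethanol from 2 hpf, and they were used here only as a second set of arrays with the same experiment numbers. No level was compared between the 2 treatments. A pool of whole embryos mixes the deep cells of the blastoderm with the enveloping layer around them and the yolk syncytial layer below them, and fewer cells of a type cannot be told apart from less RNA per cell.

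The blastula is the stage at which the embryo takes over from the egg. A zebrafish egg is loaded during oogenesis with messenger RNA that runs the first, rapid and almost transcription-free cell divisions. At the midblastula transition the divisions slow and lose their synchrony, the zygotic genome is switched on by the maternally supplied transcription factors Pou5f3, Nanog and SoxB1, and many maternal messages are deadenylated and degraded. Signals of the Nodal, BMP, Wnt and FGF families then begin to pattern the blastoderm, before gastrulation and long before any organ has formed.

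The 6 control arrays had median signals of 91.9 to 102.6, in the linear intensity units of the deposited MAS5 table, and highest signals between 46547 in pool 6 and 78199 in pool 1. The array carried 15502 probe sets for zebrafish transcripts, of which 10796 had exactly 1 gene symbol, 134 had several and 4572 had none, so that 8793 genes could be named. A mean signal of 100 over the 6 pools served as the limit for calling a transcript well measured, and 20 negative control probe sets for bacterial tags and fluorescent proteins had means of 4.97 to 38.5. Signals under 50 were therefore taken as within or close to that range, without calling any gene absent. Markers of the cells that a blastula contains had means of at least 100 for 6 of 8 measured enveloping layer genes and 5 of 7 yolk syncytial layer genes. For germ plasm it was 7 of 7 and for deep cells 6 of 6, against 60.9% of all named genes. With so few markers the first 2 counts were not read as more than that share. Under 50 lay *agr1* of the enveloping layer with 21.1, and *apobb.1* and *slc30a1a* of the yolk syncytial layer with 40.9 and 48.2. Each pool carried its own experiment number, so that a difference between 2 pools is a difference between 2 experiments. It cannot be told apart from a difference between 2 extractions or 2 single hybridisations. According to the paper, the arrays were all processed together in the same batch, and embryo batch was significant in its own analysis.

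Of the 15502 probe sets 7736 (49.9%) reached a mean signal of 100, and 38.6% or 5991 had a mean under 50. At the top, 180 probe sets (1.16%) had means of 10000 or more. Among the 8793 named genes, each represented by its probe set of highest mean log2 signal, 60.9% (5357 genes) reached 100, 28.7% (2521 genes) lay under 50, and the median gene had a mean signal of 201. A signal also depends on how well the probes of a set hybridise, so all ranks below are ranks of signal and not of molecule number. Of the 1540 genes with several probe sets, 465 had some above and some below 100, and the probe sets of 662 genes differed by more than 4-fold.

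The 30 highest places among probe sets with 1 gene symbol, which lay within the first 34 of all probe sets, are given here by the role of their genes, grouped after their values had been seen. The 3 probe sets of *COX1*, the mitochondrially encoded catalytic subunit of cytochrome c oxidase, lay among the top 30, and the brightest of them had signals of 78199, 77170, 62605, 64052, 63648 and 46547 in pools 1 to 6. *eef1a1l1*, the elongation factor that brings aminoacyl-tRNA to the ribosome, came next among the named genes with 41864 ± 7995 (SD, n = 6). RNA-binding proteins that package, splice or export messenger RNA were represented by *khdrbs1a*, *hnrnpa0l*, *hnrnpabb*, *hnrnpa0b*, *hnrnpa1b*, *alyref* and the cold-inducible *cirbpa* and *cirbpb*. *khdrbs1a*, a STAR-family splicing regulator, averaged 33087 ± 3863 and *hnrnpa0l* averaged 32746 ± 6928 (SD, n = 6 each).

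Other members of the top 30 were the ribosomal protein genes *rps20*, *rpl38*, *rps23* and *rps14*, the poly(A)-binding protein gene *pabpc1a*, the translation regulator *bzw1a*, the ubiquitin gene *ubb* and the constitutive chaperone *hspa8*. Iron storage was represented by the ferritin heavy chain genes *fth1a* and *fthl27*, with means of 31953.5 and 23310.5, and lysosomal proteolysis by the cathepsin L gene *ctsla*, with 25268. Chromatin proteins were represented by *hmga1a*, with 23418, and the acidic nuclear protein prothymosin alpha by *ptmab*, with 21574. The single sequence-specific regulator of pluripotency in the group, *pou5f3*, closed the list with 20019 ± 2845 (SD, n = 6), just above the small GTPase gene *ran* with 19897, which fell outside it.

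**Figure D1:**
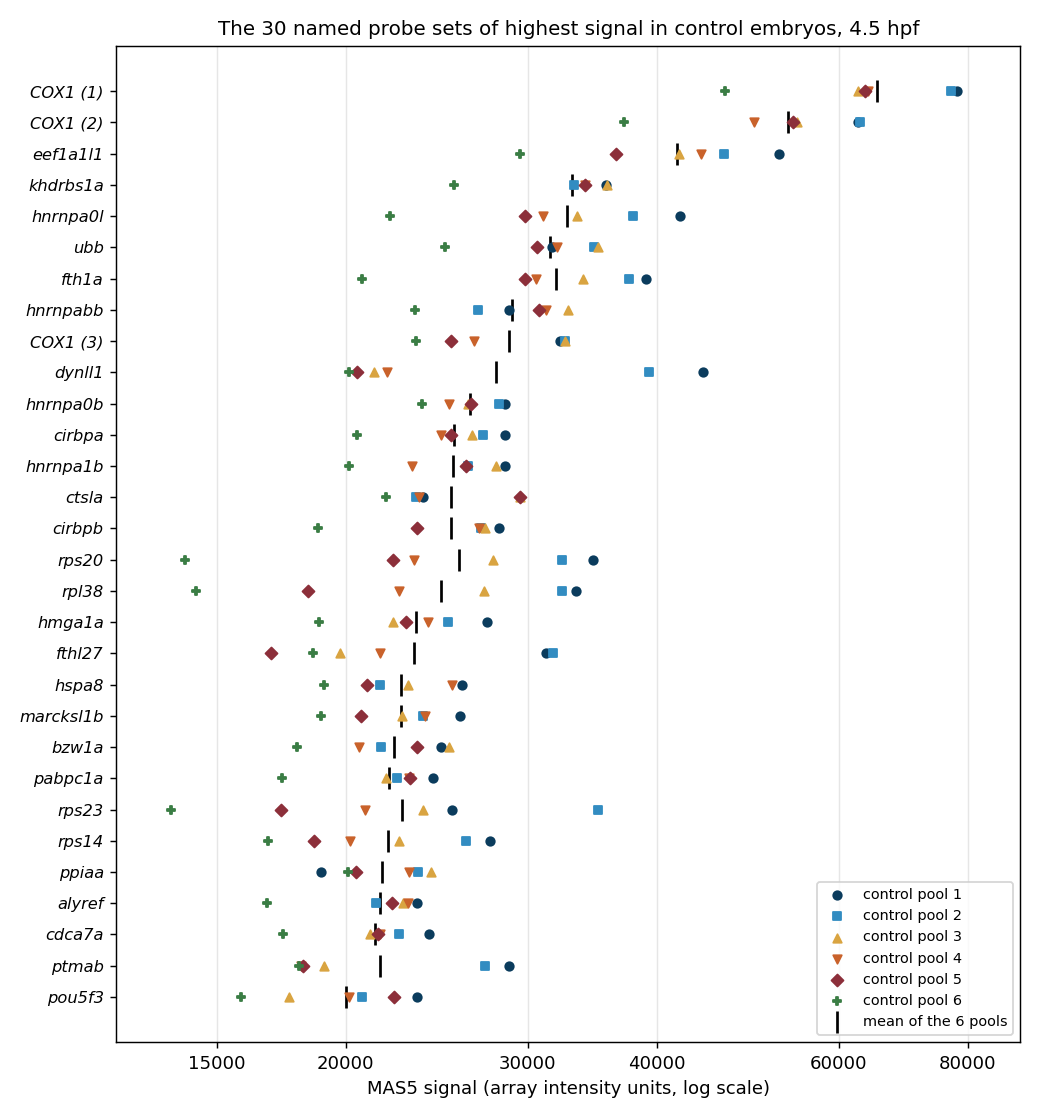
MAS5 signal, on a log scale, of the 30 named probe sets of highest mean log2 signal in the 6 control pools, with 1 symbol per pool and a black bar at the arithmetic mean. Pool 6 holds the lowest signal in 28 of the 30 rows and pool 1 the highest in 20, and *dynll1*, *fthl27* and *ptmab* have pools 1 and 2 well above the other 4.

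Pool 6 had the lowest signal of the 6 for 28 of these 30 probe sets, as the plot of the highest signals shows, and for 133 of the 180 with a mean of at least 10000 (73.9%, against 15.7% over all 7736 well measured probe sets). With the signals quantile normalized it was lowest for 5 of the 30 and 36 of the 180, and with each array centred on its median for 28 and 134. Quantile normalization gives every array the same set of values, so it removes any shift shared by an array's brightest probe sets. Centring could change little, with array medians of 91.9 to 102.6. Neither pair of counts thus decides what the low place of pool 6 reflects. Control RNAs spiked in for hybridisation were also lowest in pool 6, with a geometric mean of 4498 against 5825 to 7768 in pools 1 to 5. Their relation to the low place of pool 6 was not tested. The spread of the top 30 was small all the same, with SDs of log2 signal between 0.10 for *hnrnpa0b* and 0.52 for *dynll1*. *dynll1*, a light chain of the dynein motor, had signals of 44394 and 39357 in pools 1 and 2 and between 20150 and 21950 in pools 3 to 6, with no overlap.

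Gene lists set out how the signal was shared out among functions. The lists overlap in part (*h1m*, *gdf3*, *vox* and others stand in more than 1), and each was read against the 60.9% of all named genes that reached 100. The machinery of translation was measured throughout. All 72 cytosolic ribosomal protein genes reached 100, with a median gene at 11436, and so did 58 of 59 mitochondrial ribosomal protein genes, with a far lower median gene at 387. Of 62 translation elongation and initiation factors 57 reached 100, led after *eef1a1l1* by *eef2b*, the translocase of elongation, with 15582.5, and *eif4a3*, a core protein of the exon junction complex, with 8927. The lowest member was *eef1a1a*, another elongation factor 1 alpha gene, with 25.4, so that the signals of 2 genes for this protein lay at opposite ends of the range.

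Among genes of energy metabolism, those of oxidative phosphorylation were nearly all well measured, and those of glycolysis about as often as all named genes. For oxidative phosphorylation 79 of 84 nuclear genes reached 100, with a median gene at 1222 and the ATP synthase subunit gene *atp5mc1* at the top with 9925 ± 1377 (SD, n = 6). For glycolysis it was 15 of 26, with 10 genes under 50 and a median gene at 164, a share of 57.7% that lay near the 60.9% of all genes. Its brightest genes were *gapdh* with signals of 7476, 9953, 12535, 12779, 12696 and 10659 in pools 1 to 6, the aldolase gene *aldoaa* with a mean of 5276 and the lactate dehydrogenase gene *ldhba* with 3855, and the dimmest was *gpib*, one of the glucose phosphate isomerase genes, with 14.7. The proteasome had 37 of 42 genes at 100 or more, led by *psmb7* with 6230. The 4 genes under 50 included the immunoproteasome subunits *psmb8a* with 19.1 and *psmb9a* with 32.0, together with *psmb13a* with 17.1.

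Chaperones reached 100 in 41 of 45 genes, with a median gene at 1990. *hspa8*, the constitutive Hsp70, and *ppiaa*, the cyclophilin A prolyl isomerase, led with means of 22644 and 21702, followed by the small heat shock gene *hspb1* with 17998. Another small heat shock gene, *hspb8*, was the lowest with 8.04. Of the actins and tubulins 12 of 20 reached 100 (60.0%, near the 60.9% of all named genes), and *tuba8l4* with 19205, *actb1* with 19246 and *actb2* with 17199.7 stood far above *tuba8l3* with 8.83.

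Genes whose messages the egg supplies had bright signals, and arrays of a single time point cannot tell these messages from newly transcribed ones. Of 36 genes listed as maternal transcripts cleared early 35 reached 100. The median gene had 2640, the second highest median of the 31 lists after the ribosomal proteins. Clearance was not measured here, and the brightest member, *pou5f3*, also stands in the list of pluripotency and genome activation. Besides *pou5f3*, the Y-box RNA-packaging gene *ybx1* averaged 16281 ± 1649 and the mitotic cyclin gene *ccnb1* averaged 13813 ± 1511.5 (SD, n = 6 each). The lowest member was the probe set for *cnot7*, a deadenylase subunit, with 62.5. Among cell cycle genes 23 of 24 reached 100: *ccnd1*, *ccnb1* and *ccna2* had means of 13799, 13813 and 11772.5, and *cdk5*, a kinase of postmitotic neurons, stood apart with 16.7.

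Oocyte and egg coat genes were measured in 19 of 23 cases, with a median gene at 679. *h1m*, the linker histone that the oocyte supplies, averaged 11473 ± 1449, *zp3.1*, a component of the egg envelope, averaged 5645 ± 2345, and the envelope gene *zp2.6* averaged 5045 ± 368 (SD, n = 6 each). The germ plasm genes, which mark the future germ cells, all reached 100 (9 of 9) at a moderate level, with a median gene at 456. *nanos3*, which the germ cells need to survive, averaged 1015 ± 452 (SD, n = 6), *tdrd7a* 739 and *ddx4*, the vasa helicase, 730.4, and the RNA-binding gene *dazl* was lowest with 120.5. Of 8 histone genes on the array 7 reached 100, led by the variant *h2az2b* with 18152, and only *h1-10* was dim, with 16.6.

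The regulators of pluripotency and genome activation had a median gene at 2544, and 16 of 17 reached 100. *pou5f3* had signals of 23463, 20756, 17645, 20130, 22268 and 15853 in pools 1 to 6. *nanog* had a lowest, median and highest signal of 11681, 13898 and 15144, and *vox*, a ventral repressor that is among the first zygotic targets, had 10326, 12950 and 18687. Of the SoxB1 genes, *sox3* had a mean of 9051 and *sox19a* of 5592, while *sox19b*, which the egg supplies, had 485 and *sox2* 321. *klf4* was the exception with 19.8, whereas its relative *klf17* averaged 3063.

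Genes that are among the first to be transcribed by the zygote were mostly well above background, with 60 of 64 at 100 or more and a median gene at 1106. The apolipoprotein gene *apoeb* averaged 16073 ± 2327 and the keratin gene *krt18a.1* averaged 11683 ± 978 (SD, n = 6 each), and *wnt11* was lowest with 16.6. The T-box gene *tbx16*, which directs mesoderm formation, averaged 9729.8 ± 725 (SD, n = 6), and its 6 signals lay between 8550.4 and 10599.

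The lists for both extraembryonic layers held bright and dim genes. For the enveloping layer, the first epithelium of the embryo, 17 of 26 genes reached 100, a share of 65.4% that lay near the 60.9% of all named genes. *krt8* had signals between 10631 and 17278 with a median of 13731, *epcam* between 10638 and 17611 with a median of 12602, and *krt18a.1* between 10308 and 12571 with a median of 11886. The lowest gene of the list was *krt15*, with a mean of 11.8, and among the marker genes the claudin *cldnf* averaged 62.2 and *agr1* 21.1. For the yolk syncytial layer 13 of 20 genes reached 100, a share of 65.0% that also lay near it. *mxtx2*, the homeobox gene that starts the fate of this layer, averaged 1431 ± 246 (SD, n = 6). The lysosomal and lipid transport genes *ctsla*, *apoeb* and *apoc1* led the list with 25268, 16073 and 6317, while *apobb.1* averaged 40.9 and *apoa4b.1* 2.81.

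Among the signalling lists, that of Nodal signalling and mesendoderm had the largest share of genes at 100 or more. It also holds mesendoderm genes such as *tbx16* and *sox32*. The lists were chosen with earlier results of these data known, so their order describes the lists and not the pathways. For Nodal signalling and mesendoderm 22 of 25 genes reached 100 with a median gene at 738, for BMP signalling and dorsoventral patterning 28 of 37 with 323, for the Wnt pathway 20 of 27 with 409, for the Notch pathway 14 of 20 with 166, and for the FGF pathway 9 of 18 with 127. The share for FGF lay below the 60.9% of all named genes and the other shares above it. With so few genes, the shares for Notch and FGF were not read as different from it. The 3 brightest members of each list were transducers, receptors, co-receptors or early targets. *tdgf1*, the Nodal co-receptor, averaged 8077 ± 1084, and *sox32*, the endoderm determinant downstream of Nodal, averaged 4432 ± 1578 (SD, n = 6 each). The later endoderm gene *sox17* was lowest in its list with 30.7.

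*id1*, a target of BMP signals, averaged 12353 ± 2118 and the ventral repressor *ved* 5579 ± 1114, against 7.17 ± 4.74 for the BMP antagonist *nog2* (SD, n = 6 each). The 2 beta-catenin genes, *ctnnb2* and *ctnnb1*, averaged 10740.0 and 7827, the frizzled receptor gene *fzd7b* averaged 4062, and the ligand gene *wnt2ba* averaged 15.0. For FGF the ETS-type targets *etv5b* and *etv4* averaged 3821 and 2281, the receptor gene *fgfr4* averaged 2279, and *fgfrl1a* averaged 9.69. The Notch list was led by *hes6*, *her7* and *her6* with 2271, 1043 and 786, all of the hairy and Enhancer of split type, and closed by the receptor gene *notch1b* with 11.5.

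Genes of tissues that form only after gastrulation were nearly all dim. Of 42 hox genes 41 had means under 50, and so did all 11 lens crystallin genes, 30 of 40 skeletal and heart muscle genes, 29 of 33 liver, pancreas and gut genes, 30 of 36 genes of neurons and glia, 15 of 19 genes of the retina and photoreceptors, 28 of 35 genes of extracellular matrix and skeleton and 17 of 23 genes of blood and immune cells, against 28.7% of all named genes. The median genes of these lists lay between 16.6 for the crystallins and 27.1 for blood, inside the range of the negative controls. Pigment cell genes had 7 of 9 under 50 and none at 100. *cryaa*, the alpha crystallin of the lens, averaged 32.2, the muscle creatine kinase gene *ckma* 60.2, the embryonic globin gene *hbbe3* 27.4 and the neural regulator *pax6a* 3.41.

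**Figure D2:**
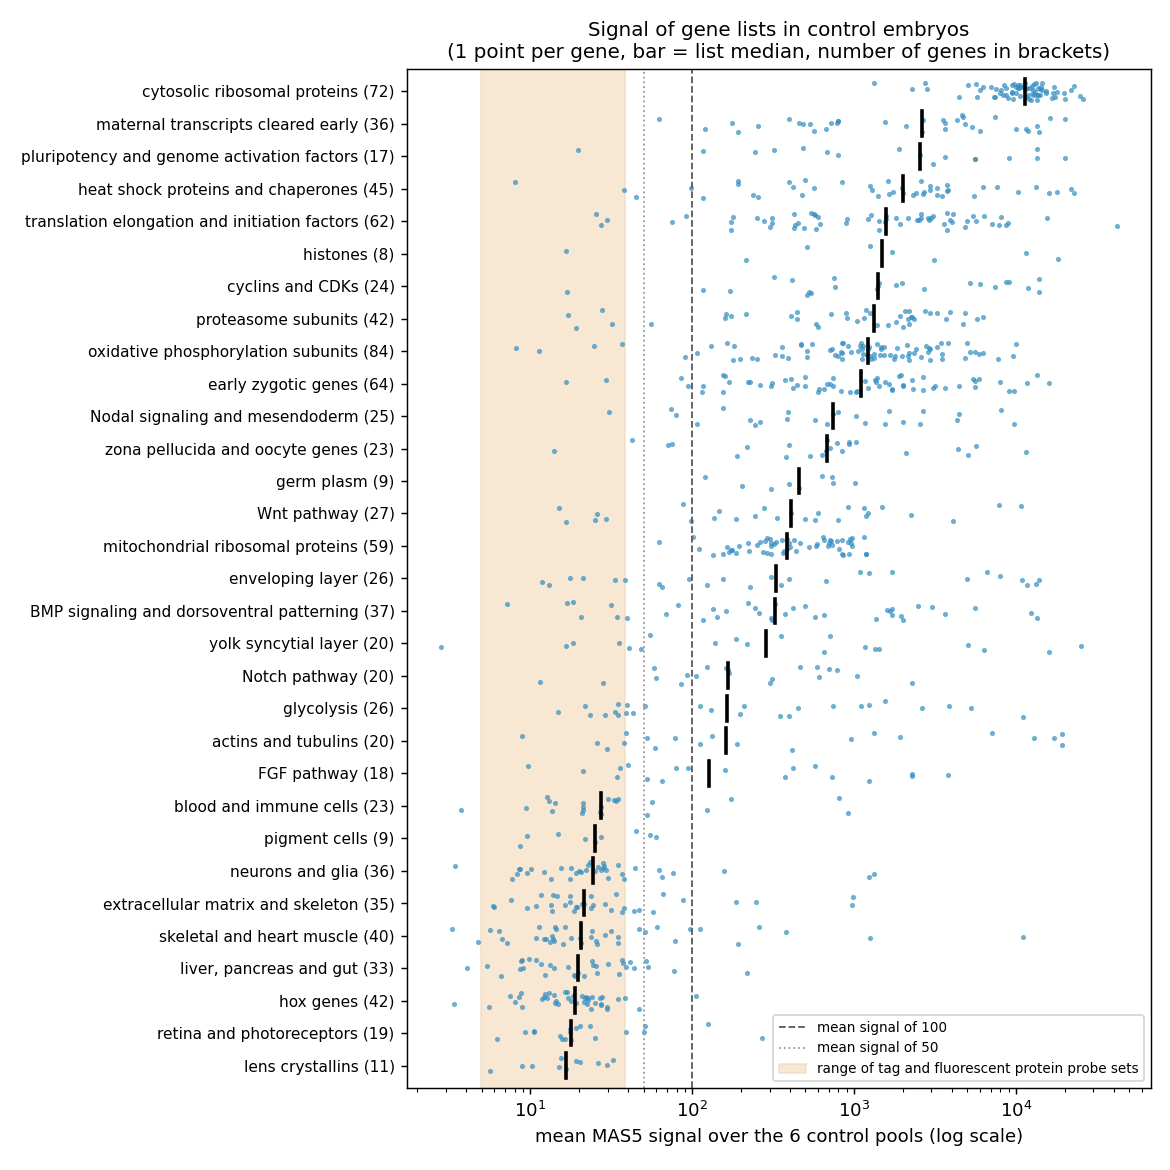
Mean MAS5 signal over the 6 control pools, on a log scale, for the genes of 31 lists (1 point per gene, black bar at the list's median, number of genes in brackets). The medians of cytosolic ribosomal proteins, maternal messages and pluripotency factors lie highest, and the medians of the lists of later tissues, though not all of their genes, fall within the shaded range of the negative control probe sets.

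The few members of the late lists that passed 100 were named here after their values had been seen, as were all other genes in this description that are neither among the 3 brightest or the dimmest of a list nor in a ranking by signal or spread. *myl12.1*, a non-muscle regulatory myosin light chain gene that the muscle list happened to hold, averaged 10976 ± 1711, and *tubb5*, a tubulin gene of the neuronal list, averaged 1330 ± 257 (SD, n = 6 each). *cebpa*, a transcription factor gene of myeloid cells and liver, averaged 914, the leukocyte actin-bundling gene *lcp1* 805, and the laminin chain gene *lamb1a* 968. *mbpb*, a paralog of the myelin basic protein gene, averaged 1228 ± 143, with 6 signals between 1097 and 1478. *hoxb2a* was the only hox gene to reach 100, with signals of 12.5, 72.1, 167, 120, 212 and 51.9 in pools 1 to 6 and a mean of 106. Its other probe set averaged 23.2, and the mean fell under 100 without pool 3 or without pool 5.

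For most transcripts the 6 pools were close to each other. Over the 7736 well measured probe sets the SD of log2 signal had a median of 0.30, with 10% of the probe sets at 0.15 or less and 10% at 0.57 or more. The spread narrowed as the signal rose: the median SD was 0.36 for means of 100 to 300, 0.30 for 300 to 1000, 0.24 for 1000 to 3000, 0.21 for 3000 to 10000 and 0.24 above that. An SD of 1 or more, a typical deviation of 2-fold, was reached by 105 probe sets (1.36%), of which 69 had means between 100 and 300 and none a mean of 10000 or more. Pairs of pools were not equally close. Pools 3 and 4 differed by more than 2-fold at 40 probe sets, pools 4 and 5 at 54, pools 3 and 5 at 87 and pools 1 and 2 at 197, whereas pools 1 and 5 differed at 1081.

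The steadiest named transcript was *ppp2cb*, a catalytic subunit of the phosphatase PP2A, with signals of 3448, 3566, 3549, 3499, 3431 and 3579 in pools 1 to 6 and an SD of 0.03 on the log2 scale. The next in order were *ier5l*, *nktr*, the RNA helicase gene *dhx15*, the casein kinase 2 subunit gene *csnk2b*, *uhrf1*, which maintains DNA methylation, *dhrs13b.1*, *svopl*, *vapa* and the lysosomal membrane gene *lamp2*. Their highest signal was between 1.07 and 1.11 times the lowest, against 1.04 for *ppp2cb*. They covered means from 186 for *dhrs13b.1* to 10352 for *lamp2*, and all but *dhrs13b.1* had means of at least 1440. In the 6 ethanol arrays, which had no part in choosing these genes, their SDs lay between 0.05 and 0.25. The median over all 7736 well measured probe sets in those arrays was 0.26. That median includes many dimmer probe sets, for which the spread between control pools was wider. No median at matched signal was taken. The value of 0.25 belonged to *dhrs13b.1*, so its small spread did not recur in the ethanol arrays.

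**Figure D3:**
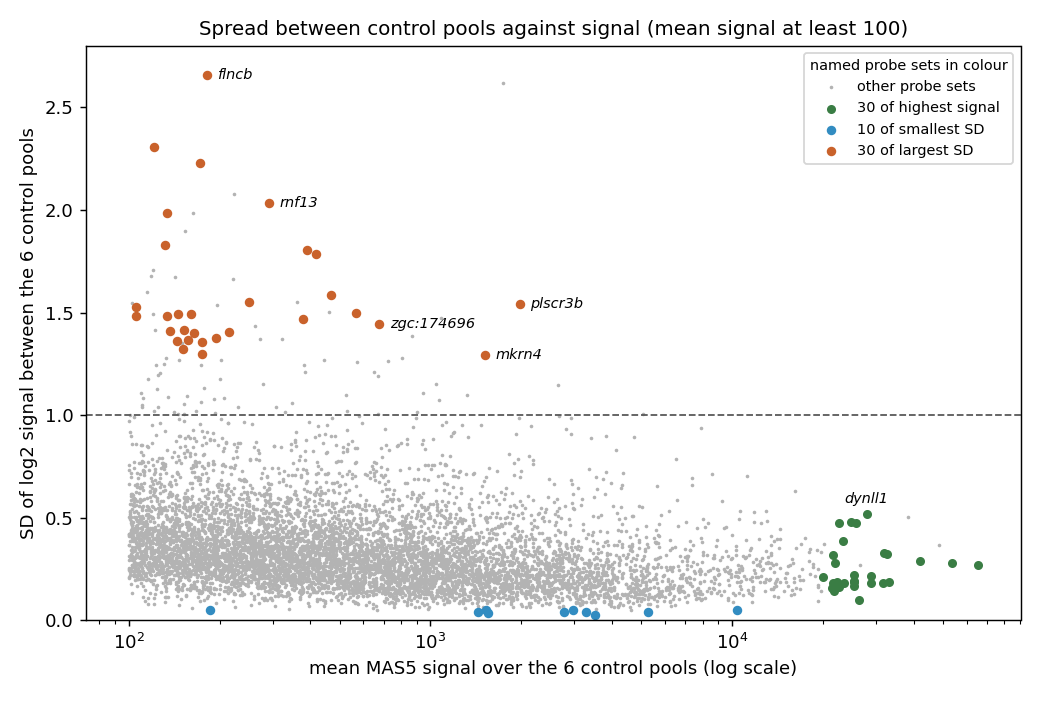
SD of log2 signal between the 6 control pools against mean MAS5 signal on a log scale, for the 7736 probe sets with a mean of at least 100. The 30 named probe sets of largest SD (orange) lie mostly at means of 100 to 1000, and the 30 of highest signal (green) have SDs between 0.10 and 0.52.

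Among the 30 named probe sets that varied most, chosen by their SD, the pools parted in only a few ways, which were read from the largest gap between neighbouring signals. The widest spread belonged to *flncb*, the gene of the actin crosslinker filamin C, with signals of 23.5, 19.7, 6.64, 7.95, 16.7 and 1013 in pools 1 to 6. Pool 6 stood alone and the other 5 lay within the range of the negative controls. The ethanol array of experiment 6 also stood alone, with 912 against 2.25 to 8.51 in the other 5 ethanol arrays. The reverse held for 2 probe sets of *zgc:173837*, an uncharacterised gene: the more variable had signals of 409 to 527 in pools 1 to 5 and 21.8 in pool 6. The remaining probe set of *zgc:173837* did not share this pattern and had its highest signal, 1566, in pool 6 and its lowest, 1162, in pool 1.

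Pools 3 to 5 stood above the rest in 6 of the 30. *rnf13*, a ubiquitin ligase gene, had signals of 38.3, 35.0, 546, 569, 502 and 54.2 in pools 1 to 6. *eif3eb*, for a subunit of the initiation factor eIF3, had 9.73, 25.2, 331, 342, 285 and 42.2. In both genes the 3 high pools were separated from the 3 low ones by more than 6-fold. The others were *atp5mea*, for a small subunit of ATP synthase, *tph1a*, for an enzyme of serotonin synthesis, the nuclear receptor gene *nr4a1* and the parvalbumin gene *pvalb6*. For *nr4a1* the signals were 48.2, 60.1, 294, 283, 264 and 39.02. A second probe set of *tph1a* had lower signals of 31.7 to 104, with its 2 highest in pools 4 and 5.

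Pools 3 to 5 stood below the rest in 5 of the 30. *zgc:174696*, an uncharacterised gene and the brightest of them, had signals of 1217, 889, 218, 189, 163 and 1388 in pools 1 to 6. *thumpd3*, for a protein of tRNA methylation, had 218, 252, 45.6, 28.5, 45.4 and 284. The others were *zgc:174288*, *tmem230b* and the guanine exchange factor gene *farp2*. For *farp2* this division was seen in 1 of its 3 probe sets. The other 2 had signals of 1877 to 2667 and of 239 to 385, and in neither were pools 3 to 5 all below the rest.

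Pools 1 and 2 stood above the others in 5 of the 30, which came from 4 genes. Both probe sets of *hsp90aa1.2*, an Hsp90 chaperone gene, were among them, the brighter with signals of 1266, 764, 202, 83.5, 57.9 and 125 in pools 1 to 6. *serpinh1b*, the collagen chaperone Hsp47, had 1275, 1198, 201, 151, 121 and 464. The remaining genes were *pck2*, of mitochondrial phosphoenolpyruvate synthesis, and the kainate receptor gene *grik1a*. Pools 1 and 2 stood below the others for *plscr3b*, a phospholipid scramblase gene and the brightest of the 30, with signals of 366, 339, 3097, 2769, 2644 and 2639, and for *rcn3* and 1 probe set of *mmut*.

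In the remaining 8 of the 30 the largest gap set pool 1 below the other 5, with signals between 3.62 for *tex264a* and 239 for *mkrn4*, a makorin gene. Pool 1 was not alone in being low in all of them: *kng1*, the kininogen gene, had 7.91 in pool 1, 38.9 in pool 2 and 54.4 in pool 6, against 202 to 267 in pools 3 to 5. The 3 probe sets of *mkrn4* all had their lowest signal in pool 1, with 1346, 1174 and 239, against 2615, 1598 and 718 in pool 2 and at least 4364, 2849 and 1781 in pools 3 to 6. In the same way all 5 probe sets of *mmut*, the methylmalonyl-CoA mutase gene, were lower in both pools 1 and 2 than in pools 3 to 6. For *trnau1apb*, which acts in selenoprotein synthesis, the 2 probe sets parted: one had 13.4 in pool 1 and 93.1 to 196 in the others, and the other had 787 in pool 1 and 411 to 806 in the others. The last named probe set inside the ranking was that of *mkrn4*, with an SD of 1.29, and the first outside it was *msrb1a*, with 1.28.

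**Figure D4:**
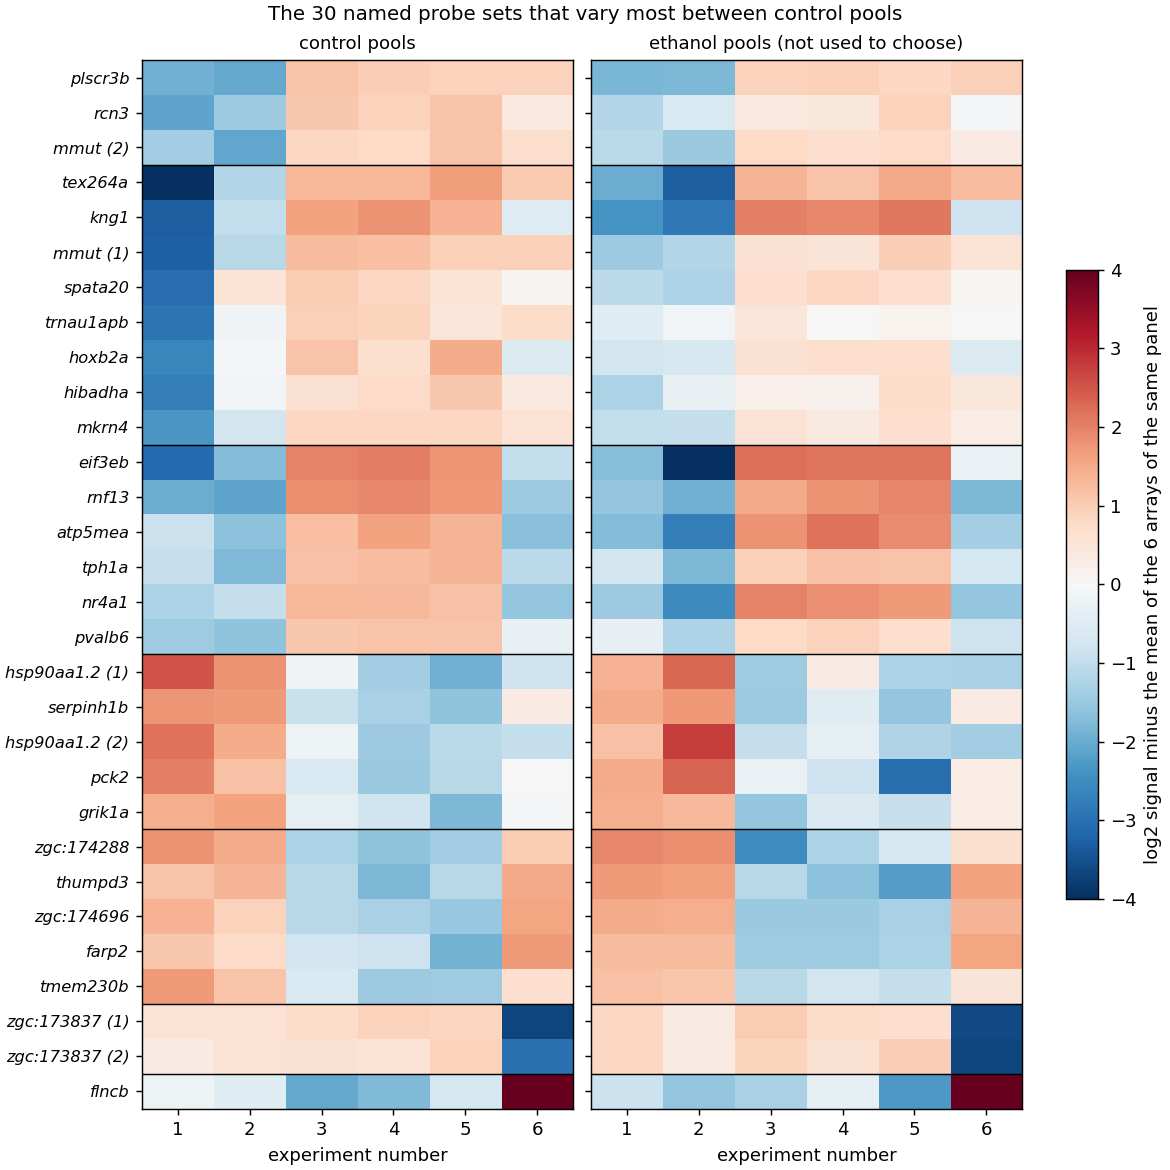
Log2 signal minus the mean of the 6 arrays of the same panel for the 30 named probe sets of largest SD in the control pools, with control arrays on the left and ethanol arrays, which did not choose them, on the right (colours stop at 4 in either direction). The rows are grouped by how the control pools parted, and in 27 of the 30 the ethanol arrays part between the same experiment numbers.

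The ethanol arrays gave a second reading of these groupings in arrays that the ranking had not used. In 27 of the 30 they divided without overlap between the same experiment numbers as the control pools, against 40.0% of all 7736 well measured probe sets. All 6 deviations from the mean had the same sign as in the control pool of that number in 25 of the 30, against 18.7%. Over the full set of 105 probe sets with an SD of at least 1, named or not, the division recurred in 82 (78.1%). It recurred in 14 of 14 with pools 3 to 5 lower, in 15 of 15 with pools 3 to 5 higher, in 13 of 14 with pools 1 and 2 higher, in 15 of 16 with pools 1 and 2 lower, in 7 of 7 with pool 6 higher and in 9 of 10 with pool 6 lower. It recurred less often where the gap set pool 1 below the rest (7 of 16) or above it (0 of 2), where another single pool stood apart (2 of 9) and for other divisions (0 of 2). Over all 7736 well measured probe sets the share also depended on the type of division, which the 40.0% does not show. That share lay between 62% and 70% for each division by pools 1 and 2, pools 3 to 5 or pool 6. With pool 1 lower it was 38%, near the 7 of 16. The recurrence among the 105 thus belonged in part to the type of division. An SD of at least 1 was also found in the ethanol arrays for 72 of the 105, against 1.31% of all.

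The lower signals of these transcripts often lay near the negative controls. With 50 added to every signal before the log, 43 probe sets in place of 105 had an SD of at least 1, and 17 of the 30 named ones kept their place. A limit of 100 on the mean kept *spata20* (106, with 9.69 in pool 1) and *ano1a* (100.8, SD 1.0) inside, and left *ddx17* (98.8, SD 1.13) and *cyp2p6* (98.3, SD 1.79) just outside.

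Differences between the experiments were widespread and mostly small. In a limma fit of experiment and treatment to the log2 signals of all 12 arrays, the moderated F test of experiment passed a Benjamini-Hochberg adjusted p of 0.05 for 2321 of 7736 probe sets, or 30%. Of the 30 most variable probe sets 29 passed, and nothing was read from that count because the control arrays had chosen them. Of the 30 brightest 1 passed, *dynll1*. The count was 1513 without experiment 6 and 256 of 15502 with no limit on the mean signal, and any variation of the treatment effect between experiments enters the error of this test.

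Lists differed in how many of their genes varied with experiment, beside 29.5% (1581 of 5357) of all named genes. The zona pellucida and oocyte list had 12 of 19 (63.2%), histones 4 of 7, glycolysis 8 of 15 (53.3%), maternal transcripts 15 of 35 (42.9%) and chaperones 16 of 41 (39.0%). At the other end stood cytosolic ribosomal proteins with 3 of 72 (4.17%), cyclins and CDKs with 2 of 23 (8.70%), proteasome subunits with 4 of 37 (10.8%), the enveloping layer with 2 of 17 (11.8%) and pluripotency and genome activation with 2 of 16 (12.5%). Early zygotic genes had 14 of 60 (23.3%). A low share did not always go with a small spread between control pools. Cytosolic ribosomal proteins had a median SD of log2 control signal of 0.31, against 0.29 for all named genes. The other lists named at the low end lay between 0.20 and 0.25. No list was tested as a whole, and these shares describe the genes on this array.

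Some egg coat, oocyte and germ plasm genes were among the maternal genes that varied with experiment. *zp3c* had signals of 609, 544, 1215, 1251, 1329 and 641 in pools 1 to 6 (limma F test, adjusted p = 0.00021), and *zp3.1* had 3322, 4401, 7946, 7888, 7364 and 2950 (adjusted p = 0.0016). Both were higher in pools 3 to 5 than in any of the others. *zp2.6*, by contrast, had 4928, 5460, 5150, 5193, 4379 and 5163 (adjusted p = 0.93). *zar1*, needed for oogenesis, had 410, 583, 714, 845, 894 and 1257 (adjusted p = 0.0069). *nanos3* of the germ plasm had 529, 439, 1482, 1402, 1299 and 942, with pools 1 and 2 below all others (adjusted p = 0.00060). In the germ plasm list 3 of 9 genes (33.3%) varied with experiment, a share near the 29.5% of all named genes.

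In the patterning pathways the genes that varied with experiment were 5 of 22 for Nodal (22.7%), 8 of 28 for BMP (28.6%), 7 of 20 for Wnt (35.0%), 2 of 9 for FGF (22.2%) and 5 of 14 for Notch (35.7%), shares around the 29.5% of all named genes. The maternal Nodal ligand partner *gdf3* had signals of 2176, 3200, 5546, 5430, 6810 and 2748 in pools 1 to 6 (adjusted p = 0.0012), and pools 3 to 5 did not overlap the rest. *sox32* parted the other way, with 6168 and 6602 in pools 1 and 2 against 2921 to 4096 in pools 3 to 6 (adjusted p = 0.0017). The tailward homeobox gene *cdx4* had 1073 and 1104 in pools 1 and 2, against 324 to 551 in the others (adjusted p = 0.00018). *szl*, the secreted BMP modulator sizzled, had 1196 in pool 6 and 317 to 399 in pools 1 to 5 (adjusted p = 0.00086). In the yolk syncytial list *ctsba*, a cathepsin B gene, had 9179, 8562, 2777, 1984, 2105 and 5759 (adjusted p = 2.0e-05), while its relative *ctsla* lay between 21860 and 29512 in all 6 pools (adjusted p = 0.58).

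Taken over whole lists, the pools deviated in 2 different manners. Glycolysis genes had median deviations of −0.45, −0.20, 0.10, 0.13, 0.27 and 0.26 on the log2 scale in control pools 1 to 6, and −0.15, −0.37, 0.14, 0.03, 0.18 and 0.27 in ethanol arrays 1 to 6, each set measured from its own mean. Low values in experiments 1 and 2 thus occurred in both sets of arrays. Both control pools were below the other 4 for 7 of the 15 glycolysis genes, 10 of 19 oocyte genes and 4 of 7 histone genes, against 1113 of all 5357. The zona pellucida and oocyte list behaved alike, with −0.39 and −0.17 in control pools 1 and 2 and 0.07 to 0.24 in pools 3 to 6, and with −0.18 and −0.41 in ethanol arrays 1 and 2 and from near 0 to 0.24 in the others. The histone list had −0.54 in control pool 1 and −0.01 in pool 2, and −0.65 and −0.67 in ethanol arrays 1 and 2. *hist2h2l* had 205 and 250 in control pools 1 and 2 against 532 to 792 in pools 3 to 6, and *histh1l1*, a linker histone gene, 560 and 644 against 1411 to 1799.

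Ribosomal and mitochondrial lists deviated in the control pools without doing so to the same extent in the ethanol arrays. Cytosolic ribosomal protein genes had 0.15, 0.35, 0.15, −0.05, −0.17 and −0.41 in control pools 1 to 6, and values between −0.17 and 0.08 in ethanol arrays 1 to 6. Pool 6 was the lowest for 54 of the 72 genes, a share like that of bright probe sets in general (133 of 180). The value of −0.41 was −0.18 after quantile normalization, which removes shifts shared by bright probe sets by design. Pool 4 turned to 0.03 after median centring. Oxidative phosphorylation genes had 0.18, 0.50, 0.03, −0.09, −0.31 and −0.20 in control pools 1 to 6 and between −0.04 and 0.12 in the ethanol arrays. Pools 1 and 2 were both above the other 4 for 42 of the 79 genes, against 1066 of all 5357 named genes. Mitochondrial ribosomal protein genes had 0.26 and 0.36 in control pools 1 and 2, where both stood above the others for 33 of 58 genes, and 0.04 and 0.24 in ethanol arrays 1 and 2.

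Some genes ran against their lists, and others moved further than their lists did. *atp5f1b*, the catalytic beta subunit of ATP synthase, had signals of 2342 and 1927 in pools 1 and 2 and of 3418 to 5193 in pools 3 to 6 (limma F test, adjusted p = 0.00045). *rpl12* had 13330, 16367, 24706, 25285, 23110 and 18098, highest in pools 3 to 5 (adjusted p = 0.0046). *rps27l*, a ribosomal protein S27 paralog, had 2919, 2396, 829, 583, 460 and 770 (limma F test, adjusted p = 0.00041). Its highest signals were in pools 1 and 2, where its list was also high. Of the mitochondrial chaperones, *hspa9* was lower in pools 1 and 2, with 1441 and 1412, than in pools 3 to 6, with 2803 to 2982 (limma F test, adjusted p = 0.0018). *hspe1* was higher in pools 1 and 2, with 4438 and 3041 against 826 to 1476 (adjusted p = 0.016). The chaperone list as a whole deviated little in those 2 pools, by 0.04 and 0.06.

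**Figure D5:**
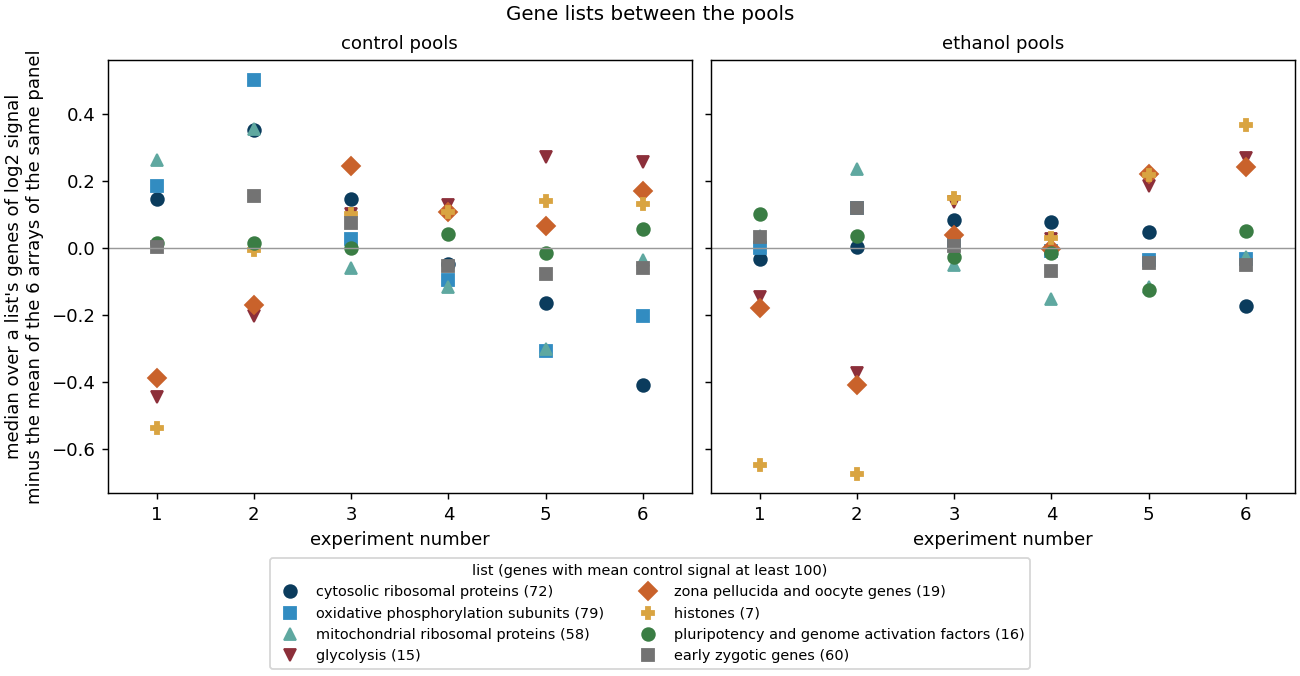
Median over the well measured genes of a list of log2 signal minus the mean of the 6 arrays of the same panel, by experiment number, for control arrays on the left and ethanol arrays on the right (number of genes in brackets). Glycolysis, oocyte and histone lists are low in experiment 1 of both panels, whereas the ribosomal and oxidative phosphorylation lists spread widely in the control panel and narrowly in the ethanol panel.

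In the control pools the pluripotency factors deviated least of the 8 lists drawn there. Their median deviations lay between −0.02 and 0.06 in the 6 control pools and between −0.12 and 0.10 in the ethanol arrays, and those of the early zygotic genes between −0.08 and 0.16 and between −0.07 and 0.12. Spiked poly-A control RNAs, added during labelling, differed more between the arrays than most transcripts, with SDs of log2 signal of 0.40 to 0.88, and were highest in pool 1, with a geometric mean of 981 against 329 to 480 in pools 2 to 6. The array's 5′ probe set for *gapdh* quality control had signals of 48.7 and 18.3 in pools 1 and 2 and of 103 to 143 in pools 3 to 6, beside 3′ signals of 112 and 102, and of 106 to 169. Among control pools, the low 5′ signals moved with the division of pools 1 and 2 from the rest in glycolysis, oocyte and mitochondrial genes. *gapdh* is itself in the glycolysis list, so the 5′ signal and that list may not be independent. The probe set of *gapdh* in that list was far brighter in every pool than these quality control probe sets. Whether they read the same transcript was not tested. The 5′ signal of 18.3 lay within the range of the negative controls. The ratio of 3′ to 5′ signal was 2.30 and 5.54 in pools 1 and 2 and 0.74 to 1.57 in pools 3 to 6. The high spike signal moved with pool 1 alone. Ethanol arrays 1 and 2 also had the lowest 5′ signals of their set, 36.8 and 48.5 against 64.8 to 106. Their ratios of 3′ to 5′ signal were 2.90 and 0.98, against 1.02 to 2.42 in ethanol arrays 3 to 6. Oxidative phosphorylation genes deviated by 0.00 and 0.12 in ethanol arrays 1 and 2. The spikes were highest in ethanol array 1, with 579 against 220.5 to 499. The part of the 5′ and spike signals in those results was not tested.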

How the data were processed

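RNA from 6 control and 6 ethanol pools of 20 embryos was hybridised to 1 array each by the authors, who left out 1 further experiment for its RNA integrity. The deposited values are linear signal intensities computed by the authors with the MAS5 algorithm in Affymetrix Expression Console, which scales every array to a common trimmed mean. With 2% of the probe sets trimmed at each end, the deposited arrays all had means of 499.7, which differs from the scaling target in the methods, so that the limits of 50 and 100 hold on the scale of the deposited table. Its version was not found in the labels or methods. Detection calls were not used. The 115 control probe sets were set aside. Symbols came from a platform annotation of 2016, updated through gene identifiers (10711 probe sets matched, 1 symbol changed), and only probe sets with 1 symbol were named. Some probe sets (suffixes x, s and a) can share sequence with other transcripts.

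Signals were taken to log2 with no further scaling. A gene was represented by its probe set of highest mean log2 signal. The members and lists were chosen with earlier results of these data known, and stray pattern matches (such as *hbegfa*, *tnn*, *cdk5rap3* and *eef2k*) were removed after their values had been seen. The rule for named genes took the 30 of highest signal, the 3 highest and the lowest of each of 31 lists, the 30 of largest SD and the 10 of smallest SD. Others were named after their values had been seen. Experiment and treatment were fitted to all 12 arrays with limma 3.58.1 in R 4.3.3 (lmFit, eBayes), and the moderated F test of experiment was adjusted by Benjamini-Hochberg over the 7736 probe sets with a mean control signal of at least 100. On simulated data for this fit with 7736 probe sets, 94 of 100 differences of 1 on the log2 scale, 100 of 100 of 2 and 12 of 7536 unchanged probe sets were called. Alternatives changed the scaling, the offset, the limit on the mean, the measure of spread, the model and the arrays. With 6 arrays in each set the number of arrays limits the precision. The p-values set differences between experiments against the spread left between the control and ethanol arrays of an experiment after the treatment term.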

Additional observations from a re-analysis of the deposited data

Results flagged for a closer look

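Of 178 named probe sets 18 had 1 control pool whose gap to its nearest neighbour took up more of the range of the 6 log2 signals than Dixon's criterion allows. Chance alone gives such a gap in about 1 in 20 groups that were not chosen by their values. The 178 included probe sets chosen by a large or small SD over these same pools, so the 18 were not set against that rate. The pool concerned was pool 1 in 7 cases, pool 6 in 7, pool 3 in 2, and pools 2 and 4 in 1 each.

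Pool 6 was low for the bright RNA-handling genes *khdrbs1a* (25475 against 33275 to 35811 in the other 5 control pools), *pabpc1a* (17357 against 21871 to 24279) and *alyref* (16797 against 21423 to 23468), and for *etv4* (1796 against 2269 to 2460). It was low for 2 probe sets of *zgc:173837*, at 21.8 and 37.4, and high for *flncb*, at 1013. Ethanol array 6 was also the lowest or highest of its set, with no overlap, for *khdrbs1a*, *alyref*, *etv4*, *flncb* and both probe sets of *zgc:173837*, and not for *pabpc1a*.

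Pool 1 was low for *spata20* (9.69 against 86.0 to 161), *trnau1apb* (13.4 against 93.1 to 196), *hibadha* (15.6 against 97.4 to 224), *dhx15* (3094 against 3280 to 3336), *h1m* (8626 against 11341 to 12542) and *tubb5* (840 against 1312 to 1573), and high for *hspb8* (32.6 against 2.27 to 4.33). In ethanol array 1 *trnau1apb*, *hibadha* and *tubb5* were again the lowest of their set, with 111, 53.6 and 939. For *dhx15* the other 5 pools lay within 3280 to 3336, so that a small gap met the criterion.

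Pool 2 was low for *ctnnb1* (6071 against 7874 to 8795). Pool 3 was low for *cnot7* (22.5 against 57.5 to 86.6) and high for *hoxc6b* (11.1 against 1.07 to 2.55), and pool 4 was high for *notch1b* (37.1 against 3.89 to 9.03). The values of *hspb8*, *hoxc6b* and *notch1b* all lay within or below the range of the negative control probe sets.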

How the results depend on the processing

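The 30 highest named probe sets changed little: 28 to 30 of them were kept when any 1 pool was left out, 29 after quantile normalization and 30 after median centring or with 50 added to each signal. The ranking by spread depended more on the low signals. Of the 30 most variable, 17 were kept with 50 added, 9 with a limit of 50 on the mean signal, 11 with a limit of 200, 16 with the median absolute deviation in place of the SD, and 21 to 27 when 1 pool was left out. The number of probe sets with an SD of at least 1 was 105, and it was 43 with 50 added, 297 with a limit of 50, 48 with a limit of 200, and 75 (without pool 1) to 138 (without pool 4) when 1 pool was left out. In pool 1's absence *spata20* had an SD of 0.35, *trnau1apb* 0.43, *hibadha* 0.45 and *mkrn4* 0.68.

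The count of probe sets that differed between experiments (2321 by the limma F test) was 256 of 15502 with no limit on the signal, 1024 at an adjusted p of 0.01, 1573 without the treatment term, 1834 with a limit of 50 and 2648 with 50 added. When 1 experiment was left out it lay between 1513 (without experiment 6) and 2187 (without experiment 1). With a trend of the variance with signal, an alternative chosen after seeing the data, it was 2710, and 2420 of 15502 with no limit. No paired analysis was possible because no comparison between treatments is reported, and the experiment number that pairs the arrays was itself the factor tested, beside a treatment term. Over the alternatives run, 10 summary values and 37 values of single genes or lists moved by more than their spread, and 59 and 782 did not. Every SD rests on 6 arrays.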
